A study of Rattus norvegicus with 12 samples.

Results

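The mitochondrial ribosomal protein genes are the nuclear genes that rat nomenclature calls Mrpl, for proteins of the large subunit of the mitochondrial ribosome, and Mrps, for proteins of the small subunit. They were taken by name: every gene in the count table whose symbol was Mrpl or Mrps followed by a number and, at most, a letter from a to d. This gave 73 genes of the 30562 in the table, 44 named for the large and 29 for the small subunit. All 73 passed the filter on low values, which asked for over 10 CPM (counts-per-million) in 1 library or more and kept 8938 genes in all. Of the 73, 71 passed it in libraries of both groups, and Mrpl1 and Mrps28 passed in standard OPC libraries only, so these 2 had to be higher there and their values are a description. Mrps17 had a second entry with a mean of 0.553 CPM in mild-hypo-OPCs and no count in standard OPCs, and the entry with the higher total was used.

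The study examined how oxygen shapes oligodendrocyte precursor cells (OPCs), the dividing glial cells that give rise to myelinating oligodendrocytes, and these libraries measured RNA in bulk from cultured cells. Wild-type OPCs were grown from the cortex of Sprague-Dawley rats on postnatal day 1 or 2, and both groups share that strain, age and genotype. Mild-hypo-OPCs were kept at 5% oxygen (FiO2) and standard OPCs received no hypoxic preconditioning. The labels give the exposure as 6 hours and the study's methods as 6 days, so the duration behind these values is uncertain. Each group has 6 libraries. No label says that the 6 came from separate cultures, and the study's figure legend gives fewer biological replicates per group than there are libraries. The n of each SD therefore counts libraries, and the p-values measure the spread between these libraries, which may in part be technical. Because the RNA was taken in bulk, fewer cells of a type and less RNA per cell cannot be told apart.

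The mitochondrial ribosome, or mitoribosome, translates the few messenger RNAs that are encoded in mitochondrial DNA, all of them for subunits of the oxidative phosphorylation complexes. Its RNAs are encoded in the mitochondrion, but every one of its proteins is encoded in the nucleus, made in the cytosol and imported. Some of these proteins descend from the bacterial ribosome and others were added in eukaryotes, and nuclear respiratory factor 1 (NRF1) and the ETS factor GABP are known activators of many nuclear genes for mitochondrial proteins.

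The promoters of a few members are shown because NRF1 and GABP motifs are the textbook feature of this gene class, and because members with and without them can be set beside the expression values given further on. The sequences are the 150 bases before the start site in RefSeq (GRCr8 assembly), written 5′ to 3′ on the gene's own strand. Capitals mark exact matches to GCGCATGCG (NRF1), CCGGAAG (ETS factors including GABP) or ACGTG (the core of the hypoxia response element), on either strand. They were chosen after the values were seen: Mrpl32 and Mrpl17 as called members with an NRF1 match, Mrps18b as a member with such a match and no call, Mrpl58 and Mrpl33 as called members with an ETS match, and Mrpl12 as a called member with none.
Mrpl32 (chr17:55260501-55260650, plus strand): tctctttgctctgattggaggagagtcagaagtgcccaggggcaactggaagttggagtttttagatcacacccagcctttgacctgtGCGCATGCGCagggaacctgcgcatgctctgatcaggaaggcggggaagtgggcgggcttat
Mrpl17 (chr1:169575700-169575849, minus strand): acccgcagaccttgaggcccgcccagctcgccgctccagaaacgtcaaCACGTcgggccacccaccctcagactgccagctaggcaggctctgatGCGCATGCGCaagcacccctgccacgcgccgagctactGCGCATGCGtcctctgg
Mrps18b (chr20:2842856-2843005, plus strand): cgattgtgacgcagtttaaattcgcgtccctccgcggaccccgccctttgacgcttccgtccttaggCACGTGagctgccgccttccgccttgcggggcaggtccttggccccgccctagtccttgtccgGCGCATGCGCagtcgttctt
Mrpl58 (chr10:101145192-101145341, plus strand): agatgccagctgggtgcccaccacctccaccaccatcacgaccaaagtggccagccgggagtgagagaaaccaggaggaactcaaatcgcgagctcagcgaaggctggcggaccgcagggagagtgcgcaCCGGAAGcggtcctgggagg
Mrpl33 (chr6:30553988-30554137, minus strand): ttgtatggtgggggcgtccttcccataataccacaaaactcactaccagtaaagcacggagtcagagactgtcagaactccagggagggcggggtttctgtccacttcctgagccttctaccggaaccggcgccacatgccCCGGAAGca
Mrpl12 (chr10:106256596-106256745, plus strand): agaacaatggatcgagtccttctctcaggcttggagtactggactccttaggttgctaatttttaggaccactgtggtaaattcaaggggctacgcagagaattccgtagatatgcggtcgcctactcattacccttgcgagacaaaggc

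In Mrpl32, Mrpl17 and Mrps18b the match reads the same on both strands with its neighbouring base, so overlapping matches on opposite strands form 1 block. Mrpl17 also holds a second, separate NRF1 match closer to the start site. The first block in the Mrps18b sequence is an ACGTG match that likewise overlaps its own reverse complement. Over the 250 bases before the start site, 58 of the 73 members had a RefSeq sequence. GCGCATGCG was found in 5 of the 58 (8.62%), against 1.35% of all 33469 promoters in the table and 3.67% of the 7076 promoters of tested genes. CCGGAAG was found in 12 members (20.7%), against 7.27% of all promoters and 17.4% of those of tested genes. ACGTG was found in 11 members (19.0%), against 16.6% of all promoters and 23.5% of those of tested genes. Both remaining motifs were rare: AAGATGGCG, a YY1 motif, in 1 member (1.72%, against 0.693% of all promoters and 1.5% of those of tested genes) and ACTACAA, a THAP11 motif, in 2 members (3.45%, against 2.91% and 4.27%). Of the 58, 40 were called lower in the comparison below and 18 were not called. GCGCATGCG was in 4 of the 40 (10%) and 1 of the 18 (5.56%), and CCGGAAG in 10 (25%) and 2 (11.1%). ACGTG was in 9 (22.5%) and 2 (11.1%). No difference between called and uncalled members was tested. These are matches of letters in a window, and none is evidence of binding.

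In mild-hypo-OPCs 48 of the 73 members were lower and 0 were higher than in standard OPCs (edgeR's quasi-likelihood test, adjusted p under 0.05 over all 8938 genes). The same call was made for 17.0% of all tested genes in the lower and 7.0% in the higher direction. In the large subunit 31 of 44 genes were lower, and in the small subunit 17 of 29. The median log2 fold change was -0.51 over the large-subunit genes (quartiles -0.74 and -0.38) and -0.54 over the small-subunit genes (quartiles -0.70 and -0.27), against -0.003 over all tested genes. A median of -0.51 is a mild-hypo-OPC level 0.702 times that of standard OPCs. Of the 71 members that passed the filter in both groups, 46 were called lower. At an unadjusted p under 0.05, 58 members were lower and 0 higher with edgeR, where 22.9% of all tested genes were lower and 13.4% higher. The counts were 56 and 0 with limma-voom (22.1% and 13.2% of all tested genes) and 55 and 1 with DESeq2 (21.8% and 14.6%).

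The groups differed in depth, and the calls depend on the scaling factors. The libraries had 4111669 to 9022324 counts in mild-hypo-OPCs (median 4915674.5) and 1356079 to 2797513 in standard OPCs (median 1952621), so depth and condition cannot be told apart by design. When log2 total count was added to the edgeR model, 0 members were called in either direction, where 0.481% of all tested genes were lower and 0% higher. At an unadjusted p under 0.05, 1 member was lower (5.46% of all tested genes were). The medians were 0.06 for the large and -0.02 for the small subunit. With library size only and no scaling factors, the median of all tested genes moved to 0.43. There 11 members were lower and 7 were higher, where 4.53% of all tested genes were lower and 61.7% higher. The members' median was 0.51 below that of all genes, with 68 of 73 members below it as in the TMM-scaled fit. Leaving out the factors shifts all genes by nearly the same amount, so this gap could hardly change and is no check. With every library thinned to the smallest total, 15 members were lower and 0 higher in edgeR, where 6.34% of the genes tested were lower and 1.84% higher. The members' median log2 fold change in that fit was -0.51. Random thinning keeps each gene's expected share of a library, so a median near that of the main fit was to be expected. It cannot remove other differences between libraries that go with depth. At an unadjusted p under 0.05, 40 members were lower and 0 higher, where 12.8% of the genes tested were lower and 8.85% higher. Fold changes below are from the TMM-scaled fit unless another is named.

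The sum over all members shows the size of the difference in each library. The 44 large-subunit genes together had 896, 1074, 1088, 1081, 963 and 1187 CPM in mild-hypo-OPC libraries 1 to 6, and 1216, 1205, 1489, 1598, 1822 and 1766 CPM in standard OPC libraries 1 to 6. All 6 mild-hypo-OPC libraries lay below the lowest standard OPC library, but the gap was narrow, since standard OPC libraries 1 and 2 were close to mild-hypo-OPC library 6. The group means were 1048 ± 103 CPM and 1516 ± 265 CPM (SD, n = 6), a difference of -30.9%. Behind these sums were 5275 to 8591 counts in each of the mild-hypo-OPC libraries, but only 1736 to 3181 in the standard OPC libraries.

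The 29 small-subunit genes together had 581 to 716 CPM in mild-hypo-OPCs (median 653) and 734 to 1096 CPM in standard OPCs (median 941). Again no library overlapped the other group, and the means of 643 ± 48.6 and 911 ± 142 CPM (SD, n = 6) differed by -29.4%. The ratio of large-subunit to small-subunit sums was 1.63 ± 0.044 in mild-hypo-OPCs and 1.66 ± 0.066 in standard OPCs (SD, n = 6), and these ranges overlapped. With library size only, the mild-hypo-OPC sums were 0.941 times the standard OPC sums for the large and 0.960 times for the small subunit. The deepest libraries had the lowest sums, namely standard OPC libraries 1 and 2 with 2797513 and 2295080 counts and mild-hypo-OPC library 1 with 9022324, but the second deepest mild-hypo-OPC library, number 3 with 5474102 counts, had the second highest sum of its group. The shallowest library of each group, number 4 in both, had neither the highest nor the lowest sum of its group. In standard OPCs, libraries 1 to 3 (2240615 counts or more) had lower sums of both subunits than libraries 4 to 6 (1664627 or fewer). The relation of the sums to depth was not tested.

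**Figure D1:**
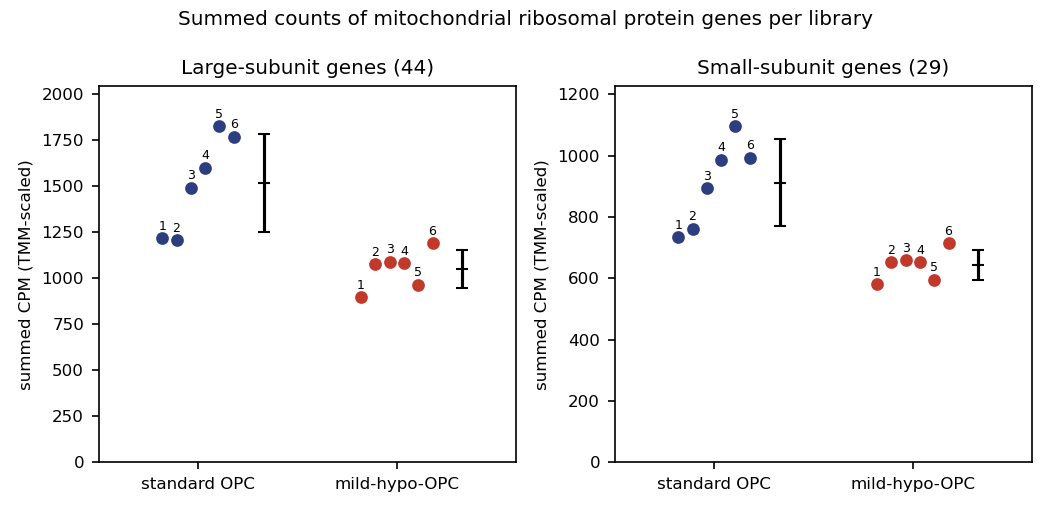
Summed TMM-scaled CPM of the 44 large-subunit and 29 small-subunit genes (y axis, from 0) in each library of the 2 groups; points are libraries numbered by replicate, and the bar beside them is the mean with its SD. All 6 mild-hypo-OPC libraries lie below the lowest standard OPC library in both panels; without scaling factors the ratios of the group means rise to 0.941 and 0.960.

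Among the large-subunit genes, Mrpl12 (ENSRNOG00000036695) had the lowest p-value. It encodes the stalk protein that recruits translation factors to the mitoribosome. Its level was 26.5 to 37.4 CPM in mild-hypo-OPCs (median 32.4) and 39.8 to 72.5 CPM in standard OPCs (median 69.0). No library overlapped the other group, and the 2 lowest standard OPC libraries, 1 and 2, stood apart from the other 4, which lay between 68 and 72.5 CPM. The log2 fold change was -0.89 (SE 0.14, adjusted p = 0.000232 in edgeR), and its promoter, printed above, held none of the 5 motifs.

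Mrpl10 encodes the protein of the stalk base to which the Mrpl12 protein is attached, and it was not called. It had 38.1 to 50.6 CPM in mild-hypo-OPCs (median 44.3) and 33.4 to 52.7 CPM in standard OPCs (median 43.6). The groups overlapped over nearly their whole range, and the log2 fold change was 0.04 (SE 0.11, adjusted p = 0.812 in edgeR). The genes of adjacent stalk proteins thus had log2 fold changes of -0.89 and 0.04, and the difference between them was not tested.

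Mrpl55 (ENSRNOG00000002943) and Mrpl48 (ENSRNOG00000018042), both for large-subunit proteins, also separated completely. Mrpl55 had 11.3 to 16.4 CPM in mild-hypo-OPCs (median 15.3) and 21.4 to 29.3 CPM in standard OPCs (median 25.4), a log2 fold change of -0.82 (SE 0.14, adjusted p = 0.000337 in edgeR). Mrpl48 had 22.7 to 28 CPM (median 24.9) and 29 to 65.7 CPM (median 45.2), a log2 fold change of -0.86 (SE 0.15, adjusted p = 0.000399 in edgeR). For Mrpl48 the mild-hypo-OPC libraries were tightly grouped and the standard OPC libraries were spread widely, with library 2 closest to the mild-hypo-OPC values.

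The largest change among the large-subunit genes was that of Mrpl54 (ENSRNOG00000020464), from 31.2 to 70.0 CPM in standard OPCs (median 54.8) to 18 to 36.3 CPM in mild-hypo-OPCs (median 24.9). It fell by 1.0 on the log2 scale (SE 0.19, adjusted p = 0.000924 in edgeR), with 5 of 6 mild-hypo-OPC libraries below the lowest standard OPC library. Mrpl58, the mitoribosome-bound peptidyl-tRNA hydrolase that frees stalled ribosomes, fell from a mean of 21.8 ± 6.62 to 11.5 ± 1.29 CPM (SD, n = 6), with -0.87 on the log2 scale (adjusted p = 0.00112 in edgeR), without overlap. Its promoter, like that of Mrpl33, holds the ETS match marked above.

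Mrpl22, Mrpl14 and Mrpl33 were lower as well. Mrpl22, whose protein lines the exit tunnel, had a log2 fold change of -0.91 (SE 0.19, adjusted p = 0.0018 in edgeR), and Mrpl14, at the face that meets the small subunit, had -0.95 (SE 0.23, adjusted p = 0.0054). Mrpl33 had -0.81 (SE 0.18, adjusted p = 0.00328 in edgeR). Mrpl14 had the widest range among them in standard OPCs, from 12.2 to 41.3 CPM, and only 3 of 6 mild-hypo-OPC libraries lay below the lowest of these.

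The large-subunit genes with the highest mean CPM over the 12 libraries were Mrpl3, Mrpl49 and Mrpl20. Mrpl3, for a protein near the peptidyl transferase center, had 48.1 ± 6.24 CPM in mild-hypo-OPCs and 65.0 ± 9.35 CPM in standard OPCs (SD, n = 6), and its log2 fold change was -0.42 (SE 0.11, adjusted p = 0.00916 in edgeR). Mrpl49 had 46.9 ± 5.15 and 64.3 ± 11 CPM (SD, n = 6), with -0.44 (SE 0.11, adjusted p = 0.00699 in edgeR). Mrpl20, whose bacterial counterpart is an assembly protein, fell from 63.5 ± 13.8 to 37.8 ± 6.52 CPM (SD, n = 6) with -0.73 (SE 0.14, adjusted p = 0.00117 in edgeR). In all 3 genes every mild-hypo-OPC library lay below the standard OPC mean.

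Among the small-subunit genes, Mrps7 (ENSRNOG00000003797) had the lowest p-value of all 73 members. Its protein binds the ribosomal RNA in the head of the subunit. The 6 mild-hypo-OPC libraries had 34.5 to 45.3 CPM (median 41.1) and the 6 standard OPC libraries 53.5 to 72.7 CPM (median 67.6). The groups did not overlap, and the log2 fold change was -0.65 (SE 0.098, adjusted p = 0.0002 in edgeR).

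Mrps18c (ENSRNOG00000002178) showed the largest change of any member. Together with Mrps18a and Mrps18b it is one of the 3 mammalian relatives of the bacterial protein S18, and Mrps18c is the one that takes its place in the small subunit. It had 6.57 to 8.88 CPM in mild-hypo-OPCs (median 7.83) and 12.2 to 34.1 CPM in standard OPCs (median 18.7), a log2 fold change of -1.39 (SE 0.22, adjusted p = 0.000253 in edgeR). The groups did not overlap, but the gene was sparsely counted, at 40 to 63 counts per library of mild-hypo-OPCs and 25 to 46 per library of standard OPCs. The relatives differed: Mrps18a, whose protein sits in the large subunit, had a log2 fold change of -0.54 (adjusted p = 0.00753 in edgeR), and Mrps18b had 0.04 (adjusted p = 0.828 in edgeR). Mrps18b had 29.1 to 37.6 CPM in mild-hypo-OPCs (median 32.2) and 23.9 to 35.4 CPM in standard OPCs (median 33.4), so that the groups overlapped. The NRF1 match in its promoter is the same run of 10 letters as in Mrpl32 and Mrpl17. Their log2 fold changes were -0.66 (adjusted p = 0.00602 in edgeR) and -0.39 (adjusted p = 0.0242 in edgeR). Mrpl22 and Mrpl44 also held an NRF1 match, with log2 fold changes of -0.91 and -0.46 (adjusted p = 0.0018 and 0.0321 in edgeR). Mrps18b was thus the only member with this match that was not called.

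Mrps33 and Mrps6 separated completely as well. Mrps33, a protein that the bacterial subunit lacks, had 14.4 to 22.1 CPM in mild-hypo-OPCs (median 20.5) and 23.2 to 42.0 CPM in standard OPCs (median 37.1), a log2 fold change of -0.82 (SE 0.14, adjusted p = 0.000399 in edgeR). Mrps6, the partner of the S18-type protein in the bacterial subunit, had 17.6 to 24.6 CPM (median 21.4) and 27.5 to 83.2 CPM (median 41.7), with -1.09 (SE 0.20, adjusted p = 0.000574 in edgeR). In both genes the standard OPC libraries were spread more widely than the mild-hypo-OPC libraries.

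Mrps21, for a small protein with a bacterial counterpart, fell from 57.4 ± 13.5 to 31.6 ± 6.09 CPM (SD, n = 6), also without overlap, with a log2 fold change of -0.83 (adjusted p = 0.000672 in edgeR). Mrps23, which has no bacterial counterpart, fell from 48.8 ± 14.5 to 28.4 ± 3.86 CPM (SD, n = 6), with -0.74 (adjusted p = 0.00228 in edgeR). Mrps16 had -0.71 (adjusted p = 0.0101 in edgeR) and Mrps28 had -0.90 (SE 0.24, adjusted p = 0.0113 in edgeR), and both overlapped between the groups. Mrps28 rested on as few as 9 counts in a standard OPC library and passed the filter in 3 standard OPC libraries and no mild-hypo-OPC library. Mrps36, now known as a subunit of the 2-oxoglutarate dehydrogenase complex in spite of its name, had -0.70 (adjusted p = 0.00856 in edgeR). Mrps30, whose protein sits in the large subunit, had 18.7 ± 2.10 and 18.4 ± 4.0 CPM (SD, n = 6) and a log2 fold change of 0.00 (adjusted p = 0.998 in edgeR).

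**Figure D2:**
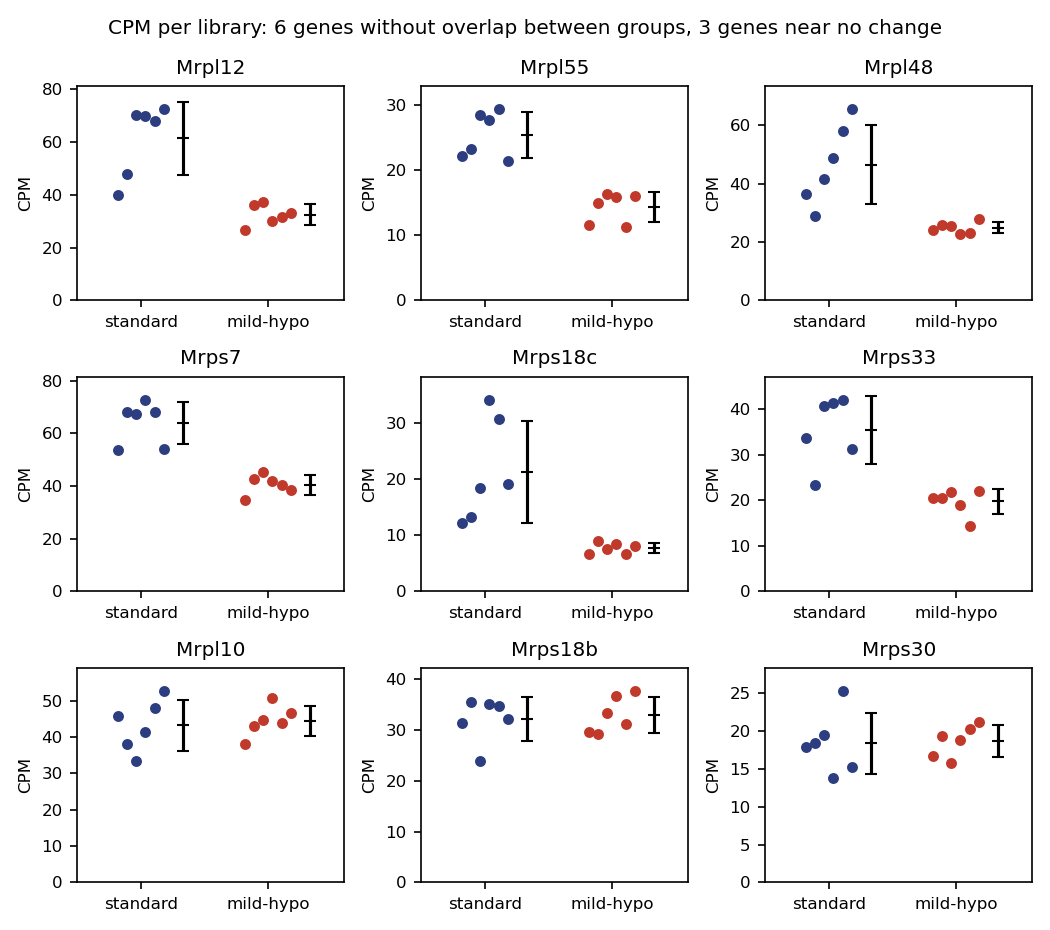
TMM-scaled CPM (y axis, from 0) in each library for 6 members whose groups did not overlap (upper and middle panels) and for Mrpl10, Mrps18b and Mrps30 (lower panels); points are libraries in order of replicate number, and bars are the mean with its SD. In the upper 6 panels every mild-hypo-OPC library lies below every standard OPC library, whereas the lower 3 overlap. In the fit with total count as a covariate, 0 of these genes were called, where 0.481% of all tested genes were lower.

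Over all members, 13 had no overlap between the groups, all 13 with mild-hypo-OPCs below and 0 above. Of all tested genes, 5.40% had all mild-hypo-OPC libraries below, and only 263 of 8938 had all of them above. The 13 members were Mrpl12, Mrpl55, Mrpl48, Mrpl58, Mrpl45, Mrpl42, Mrpl1 and Mrpl34 in the large and Mrps7, Mrps18c, Mrps33, Mrps6 and Mrps21 in the small subunit. Of these, Mrpl1 passed the filter in 1 standard OPC library only. Log2 fold changes ran from -1.39 to 0.22, and 68 of the 73 members (93.2%) were negative, as were 50.4% of all tested genes. The 5 members above 0 were Mrps2 (0.22, adjusted p = 0.148), Mrpl4 (0.13, adjusted p = 0.557), Mrpl10, Mrps18b and Mrps30, and edgeR called none of them. The calls of 35 of the 48 lower members were kept whichever of the 12 libraries was left out. Every called member named above apart from Mrpl17, Mrpl44 and Mrpl1 was among them.

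**Figure D3:**
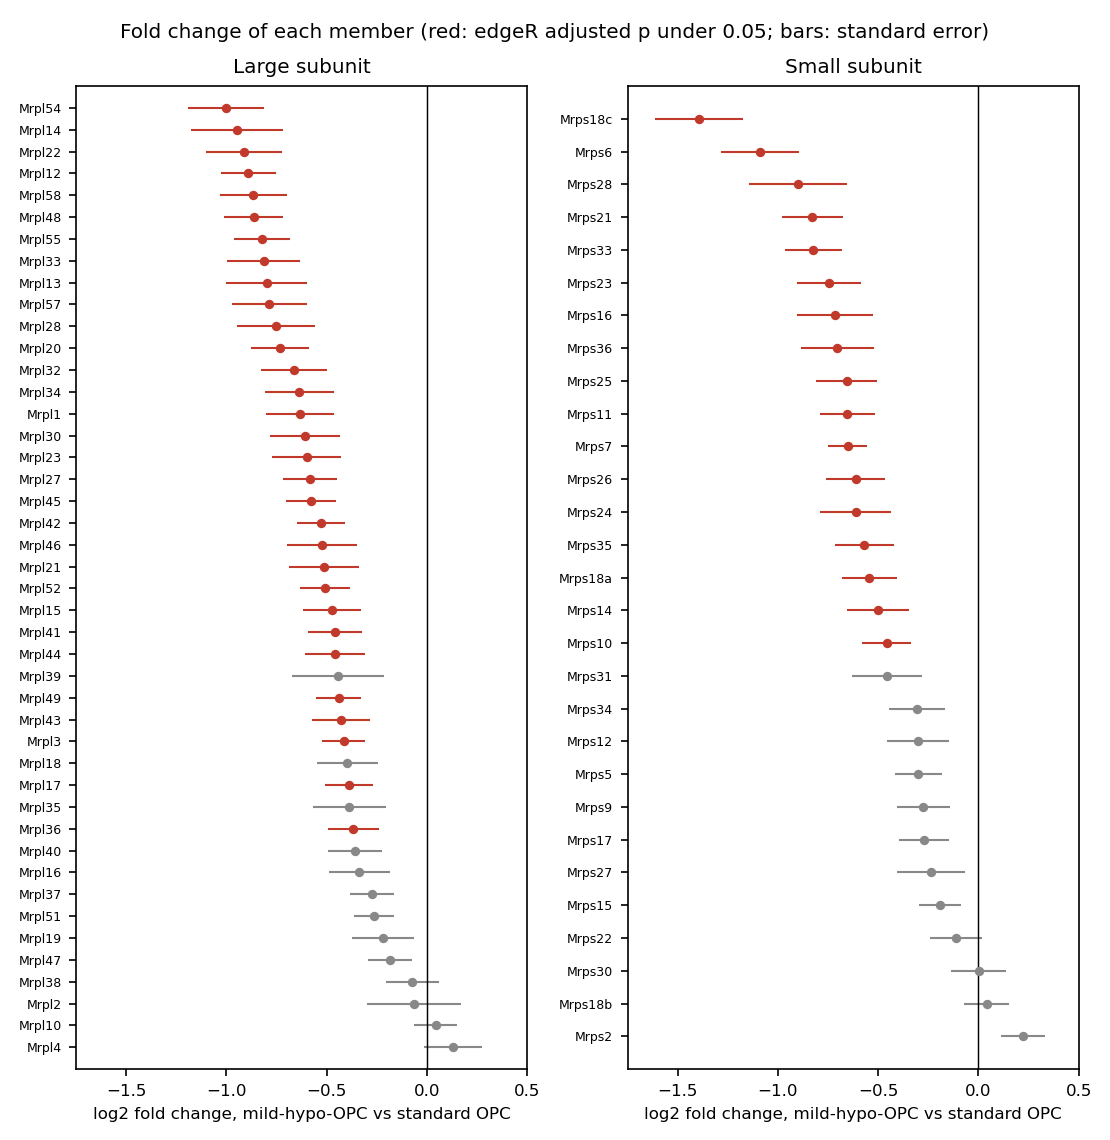
Log2 fold change of each of the 73 members, mild-hypo-OPCs relative to standard OPCs (x axis), in the TMM-scaled edgeR fit, ordered by size within each subunit; bars are standard errors and red marks an adjusted p under 0.05. Of the 73 members 68 lie left of 0 and 48 are red, where 17.0% of all tested genes were lower. With library size only 11 members were called lower and 7 higher, against 4.53% and 61.7% of all tested genes. With total count as a covariate 0 members were called, where 0.481% of all tested genes were lower.

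The members were also divided by whether the protein takes the place of a bacterial ribosomal protein, so that Mrps18a and Mrps18b count as without a counterpart although they are related to S18. Of the 27 genes for large-subunit proteins with a bacterial counterpart, 19 were lower, with a median log2 fold change of -0.58. Of the 19 for large-subunit proteins without one, counting Mrps18a and Mrps30 here by their place, 13 were lower with a median of -0.46. In the small subunit 10 of 16 genes with and 5 of 10 without a bacterial counterpart were lower, with medians of -0.56 and -0.51. Of all tested genes 17.0% were lower. No difference between these classes was tested.

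Most members are short genes, and short genes as a class were lower in mild-hypo-OPCs. The median RefSeq gene span was 6948 bases over the 72 members that had one and 25569 bases over the tested genes. In the quintile of tested genes with the shortest span, 37.3% were called lower and the median log2 fold change was -0.26, and in the quintile with the longest span these were 5.56% and 0.06. The shortest quintile held 42 members, of which 26 were lower with a median of -0.46. The next quintile, in which 21.1% of tested genes were lower with a median of -0.05, held 18 members, of which 12 were lower with a median of -0.53. The third quintile held 6 members with a median of -0.52. The fourth held 4 members that passed the filter in both groups, with a median of -0.57, and Mrpl1, and the longest held Mrps28 alone. Mrpl1 and Mrps28 passed in standard OPC libraries only, so the longest quintile gives no comparison. Across genes, which are not independent replicates, the correlation of log2 fold change with log2 span was 0.325 over 8544 tested genes and -0.038 over the 70 members with a span that passed in both groups (Pearson's r). With the trend on gene span removed in each library, 20 large-subunit and 14 small-subunit genes were lower and 1, Mrps2, was higher in edgeR, where 14.6% of all tested genes were lower and 9.48% higher, and the members' medians were -0.37 and -0.38.

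**Figure D4:**
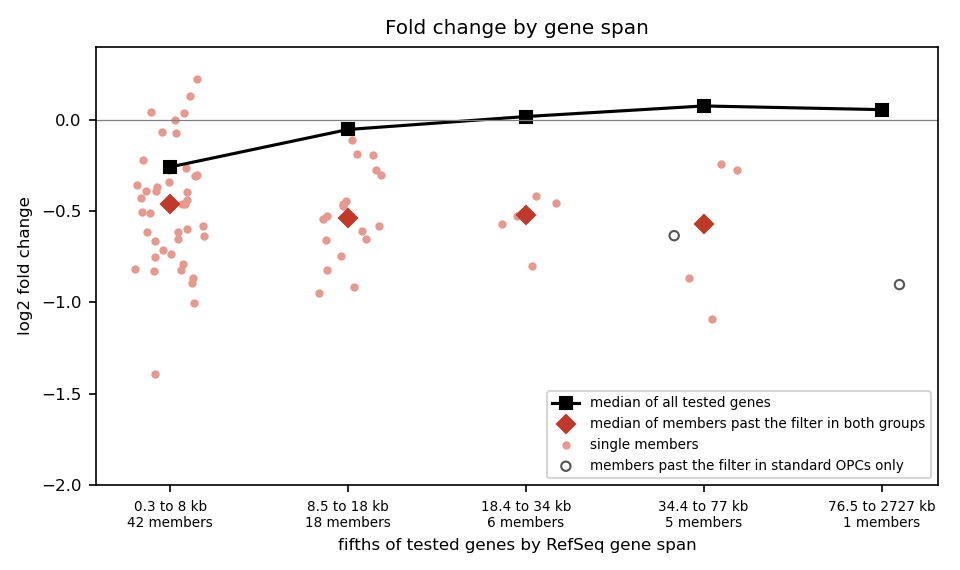
Log2 fold change, mild-hypo-OPCs relative to standard OPCs (y axis), against RefSeq gene span in quintiles of the tested genes (x axis); squares are medians of all tested genes, diamonds medians of the members that passed the filter in both groups, small points single members, and open circles the 2 that passed in standard OPCs only. The median of all tested genes rises from -0.26 in the shortest to 0.06 in the longest quintile, while the members' medians lie between -0.46 and -0.57 in the 4 shorter quintiles; in the fit with total count as a covariate the members' median was 0.05.

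Lists of genes that work with the mitoribosome were counted in the same fit. A list of mitoribosomal proteins with other names, to which the insertase Oxa1l had been added, held 5 tested genes, of which 2 (40%) were lower, against 17.0% of all tested genes. Gadd45gip1, a large-subunit protein, fell from 59.3 to 82.4 CPM in standard OPCs (median 66.0) to 34.7 to 49.6 CPM in mild-hypo-OPCs (median 42.3), without overlap, with a log2 fold change of -0.67 (adjusted p = 0.000226 in edgeR). Chchd1, of the small subunit, had -1.12 (adjusted p = 0.00104 in edgeR). Oxa1l, the inner-membrane insertase that receives the newly made proteins, had -0.26 (adjusted p = 0.0581 in edgeR), and Dap3 and Ptcd3, both of the small subunit, had -0.22 and -0.11 and were not called. Entries spelled in lower case, outside the name rule, had log2 fold changes of -0.72 for mrpl9 (adjusted p = 0.00234 in edgeR), -0.46 for mrpl24 (adjusted p = 0.0254) and -0.42 for mrpl11 (adjusted p = 0.0536), and the mrpl24 call was kept in 5 of the 12 fits that omitted a library.

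Of 12 tested mitochondrial translation factors, 2 were lower and 2 higher (16.7% each), with a median of 0.06, where 17.0% of all tested genes were lower and 7.0% higher. Slirp, which stabilizes mitochondrial messenger RNAs, had a log2 fold change of -0.99 (adjusted p = 0.00132 in edgeR), and Mtfmt, which formylates the initiator methionyl-tRNA, had -0.75 (adjusted p = 0.0132) but passed the filter in standard OPC libraries only. The genes that were higher were Gfm2, at 0.45 (adjusted p = 0.0361 in edgeR), and Mrrf, at 0.36 (adjusted p = 0.0454). Their proteins act together to split the mitoribosome after termination, but each call was kept in only 5 of the 12 fits that omitted a library. The elongation factor gene Tufm had 0.25 (adjusted p = 0.204 in edgeR).

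Of 16 tested genes for mitoribosome assembly and ribosomal RNA modification, 4 (25%) were lower, against 17.0% of all tested genes, and 0 higher, with a median of -0.31. Ndufab1, the mitochondrial acyl carrier protein, had a log2 fold change of -0.91 (adjusted p = 0.000945 in edgeR), and Malsu1, which forms an anti-association module with it on the large subunit, had -0.67 (adjusted p = 0.00731). Mpv17l2 and Mterf3 had -0.87 and -0.49 (adjusted p = 0.00294 and 0.0157 in edgeR), the latter no longer called without standard OPC library 5.

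Of 12 tested genes for mitochondrial transcription and its activators, 2 (16.7%) were lower and 0 higher, where 17.0% of all tested genes were lower. Tfam, which packages mitochondrial DNA and starts its transcription, fell from 34.2 ± 7.54 to 22.0 ± 2.26 CPM (SD, n = 6), with -0.62 (adjusted p = 0.00266 in edgeR), and Mterf2 had -1.29 (adjusted p = 0.0174) at 3.82 CPM in mild-hypo-OPCs. The Mterf2 call was lost without standard OPC library 1 or without library 2, the only libraries in which it passed the filter, which had 14.1 and 15.3 CPM where the other 4 had 2.76 to 7.23 CPM. The activator genes themselves were not called: Nrf1 had -0.06 (adjusted p = 0.741 in edgeR), and Yy1 and Myc had 0.14 and 0.04.

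The mitoribosome's own templates were also measured. The 13 mitochondrially encoded genes in the table had a median log2 fold change of -0.04, and 4 (30.8%, against 17.0% of all tested genes) were lower: Mt-nd3 (-0.60, adjusted p = 0.00291 in edgeR), Mt-co3 (-0.32, adjusted p = 0.0188), Mt-co2 (-0.28, adjusted p = 0.0414) and Mt-nd6 (-1.46, adjusted p = 0.0127). For Mt-nd6, standard OPC libraries 1 and 2 had 252 and 194 CPM, whereas the other 4 had 23 to 53.9 CPM and overlapped the mild-hypo-OPC libraries at 26.2 to 56.2 CPM. Without standard OPC library 1 its log2 fold change was -0.94 and it was no longer called. The calls of Mt-co3 and Mt-co2 were kept in 9 and 5 of the 12 fits that omitted a library, and that of Mt-nd3 in all 12. Their sum was 59972 to 85062 CPM in mild-hypo-OPCs (median 69662) and 71754 to 83917 CPM in standard OPCs (median 73906), so the groups overlapped.

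**Figure D5:**
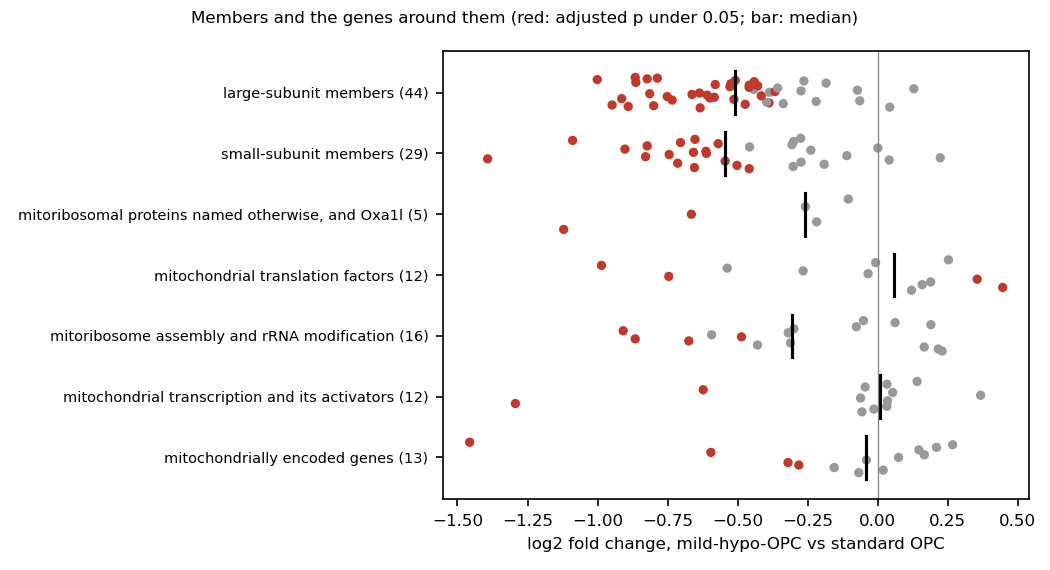
Log2 fold change, mild-hypo-OPCs relative to standard OPCs (x axis), of the members and of the tested genes in 5 related lists in the TMM-scaled edgeR fit; points are genes, red marks an adjusted p under 0.05, and black bars are medians. Medians are -0.51 and -0.54 for the subunits, -0.26 and -0.31 for other mitoribosomal proteins with Oxa1l and for assembly genes, and between -0.04 and 0.06 for the remaining lists; in the fit with total count as a covariate the subunits' medians were 0.06 and -0.02.

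Summed markers of several cell types also differed between the groups. For comparison with the counts below, 7.0% of all tested genes were higher. All 8 OPC markers were tested, and their sum was 4934 to 5526 CPM in standard OPCs (median 5331) and 5819 to 6326 CPM in mild-hypo-OPCs (median 6077), without overlap. Cnp was the most abundant, and only Gpr17 and Cnp were called higher (log2 fold changes of 0.45 and 0.28, adjusted p = 0.000842 and 0.0177 in edgeR). Their means rose from 967 to 1324 and from 1705 to 2075 CPM, and that of the sum from 5316 to 6078 CPM. The other 6 were not called, with log2 fold changes from -0.14 (Ptprz1) to 0.23 (Sox10). The OPC receptor gene Pdgfra had 0.05 (adjusted p = 0.765 in edgeR). The sum thus rests largely on Gpr17 and Cnp and does not show a rise shared by all 8. Neuron markers, led by Tubb3, summed to 83.3 to 119 CPM in standard OPCs (median 97.0) and to 143 to 158 CPM in mild-hypo-OPCs (median 145), with 1 of 5 tested genes higher. Of the 8 neuron markers listed, Slc17a7 had no count in mild-hypo-OPCs and a count in 1 standard OPC library, and the other 7 had counts in both groups. Microglia markers, led by Csf1r, summed to 30.4 to 63.3 CPM (median 60.3) and 63.8 to 93.3 CPM (median 73.2), with 3 of 6 tested genes higher (Csf1r, C1qb and Ctss) and 1, Tyrobp, lower at -0.69 (adjusted p = 0.0112 in edgeR). The calls of Csf1r, C1qb and Ctss were kept in 9, 6 and 6 of the 12 fits that omitted a library, and that of Tyrobp in all 12. Ctss, C1qa and C1qc passed the filter in mild-hypo-OPC libraries only and Tyrobp in standard OPC libraries only. Among the tested neuron markers, Stmn2, Gad1 and Nefl passed in mild-hypo-OPC libraries only. The numbers of markers tested therefore depend on the group in which such genes are higher.

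Astrocyte markers, led by Gfap, overlapped at 617 to 709 CPM in standard OPCs (median 662) and 657 to 772 CPM in mild-hypo-OPCs (median 687), with 1 of 5 tested genes, Aqp4, higher. Fibroblast and endothelial markers summed to at most 3.20 CPM in any library, led by Col1a1, with Lum and Cdh5 at 0 in all 12 libraries. The share of counts in ribosomal RNA was 17.4% to 25.2% for mild-hypo-OPCs (median 19.6%) but 23.9% to 38.4% for standard OPCs (median 32.1%). With this percentage as a covariate, an alternative added after the data were seen, the members' median log2 fold change was -0.52. In edgeR 1 member, Mrps18a, was lower, where 1.94% of all tested genes were. At an unadjusted p under 0.05, 38 members were lower, as were 15.8% of all tested genes. The part of the marker differences in the members' values was not tested.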

How the data were processed

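The authors prepared strand-specific libraries, trimmed reads with Trimmomatic 0.36, aligned them with STAR 2.7.9a to the rat assembly mRatBN7.2 and quantified genes with RSEM 1.3.3 (versions from the submitters' processing notes, with FastQC 0.11.9 for quality). The deposited values are counts, whole and not normalized, for 30562 Ensembl genes (13171 of them without a count) in 12 libraries, which were grouped by their labels, 6 to a group.

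From these counts, the 8938 genes that exceeded 10 CPM in 1 or more libraries were scaled by TMM and tested with edgeR 4.0.16 in R 4.3.3 (glmQLFit, glmQLFTest), condition being the sole term, with p-values adjusted over all 8938 by Benjamini-Hochberg at 0.05. Each SE is that implied by the F statistic, and CPM use the TMM-scaled library sizes. TMM factors were 1.08 to 1.23 for the mild-hypo-OPC libraries but 0.809 to 0.945 for those of standard OPCs. No label ties libraries to cultures, so n counts libraries. No 2 libraries of a group differed by as little as sampling noise (lowest chi-square per degree of freedom 3.22, 15 pairs per group).

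Members and lists were chosen with earlier results of these data known. Members named are, per subunit, the 8 largest called changes, the 3 with the highest mean CPM, the 3 lowest p-values among those without overlap, and those with an absolute log2 fold change under 0.05, and in other lists the 3 lowest p-values. Other names were chosen after their values were seen. Gene spans and promoters came from RefSeq (GRCr8), matched by symbol or identifier. Pseudogenes of 23 members are in RefSeq, and 17 of these 23 and 31 of the other 50 members were called lower. Counting could split reads between such copies.

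Alternatives were limma-voom (limma 3.58.1), DESeq2 1.42.0, upper-quartile factors, library size only, other filters, the replicate number as a block, log2 total count or percent ribosomal RNA as a covariate, thinning, removal of the trend on gene span, protein-coding genes only, summed repeated entries, subunits by place, and leaving out each library. Figures used matplotlib 3.10.9. Mrpl50 and Mrpl53 were not analysed here.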

Additional observations from a re-analysis of the deposited data

Results flagged for a closer look

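The total count of mild-hypo-OPC replicate 1 stood apart from the other mild-hypo-OPC libraries. It was 9022324 counts (9022000 rounded), and its gap to the next library was 0.723 of the group's range, above Dixon's critical value for 6 libraries. This library also had the lowest large-subunit sum, 896 CPM. Without it 39 members were lower in edgeR, where 13.15% of all tested genes were lower and 6.43% higher. The members' median log2 fold change in that fit was -0.44.

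Mrps18b had 23.9 CPM in standard OPC replicate 3, the lowest of that group, with a gap of 0.649 of the range. Without that library its log2 fold change was -0.03 in place of 0.04. In 56 groups of values looked at in this way, chance marks about 1 in 20.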

How the results depend on the processing

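The members' direction held under limma-voom, DESeq2, upper-quartile factors, other filters, protein-coding genes only, summed repeated entries and subunits taken by place, where 42 to 48 members were lower and 0 higher, with upper-quartile factors raising the higher calls over all genes to 1136. In these fits 8.72% to 18.5% of the genes tested were lower and 4.22% to 12.7% higher. The counts of calls moved most with the scaling and with covariates. With library size only, the median of all tested genes moved to 0.43, and 405 genes were lower and 5515 higher in all. Below that median lay 68 of 73 members, a count that a nearly equal shift of all genes could hardly change. There 7 large-subunit genes were lower and 3 higher, and 4 small-subunit genes were lower and 4 higher. The medians were -0.077 and -0.11, the ratios of sums were 0.941 and 0.960, and Mrpl3 turned to 0.023. With log2 total count as a covariate, 43 genes were lower and 0 higher in all, 0 large-subunit and 0 small-subunit genes were lower (1 member, and 5.46% of all tested genes, at an unadjusted p under 0.05 in edgeR), the medians were 0.061 and -0.015, and the log2 fold changes of Mrpl20, Mrpl22, Mrpl14, Mrpl49, Mrpl3 and Mrps23 turned to 0.092, 0.075, 0.055, 0.12, 0.12 and 0.026. Total counts did not overlap between the groups, so depth and condition cannot be told apart. With thinning, 614 genes were lower and 178 higher in all, 8 large-subunit and 7 small-subunit genes were lower, and Mrps18b turned to -0.28. The members' median in that fit was -0.51, which random thinning would be expected to leave nearly unchanged. The medians of the large and small subunit differed from that of all genes by -0.50 and -0.65. With percent ribosomal RNA as a covariate (added after the data were seen), 173 genes were lower and 23 higher in all, 0 large-subunit genes and 1 small-subunit gene were lower (38 members, and 15.8% of all tested genes, at an unadjusted p under 0.05 in edgeR), and Mrpl10, Mrps18b and Mrps30 turned to -0.22, -0.13 and -0.31. After removal of the span trend, 20 large-subunit genes were lower, 1 small-subunit gene (Mrps2) was higher, and the medians were -0.37 and -0.38. In that fit 14.6% of all tested genes were lower and 9.48% higher. Mrps30, near 0, turned to -0.011 under limma-voom and to -0.0041 under another filter. For these changes the cause was not tested.

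Leaving out each library gave 22 to 34 large-subunit and 15 to 20 small-subunit genes lower, 0 large-subunit and 0 to 1 small-subunit genes higher (Mrps2, without standard OPC replicate 1), medians of -0.59 to -0.42 and -0.61 to -0.45, ratios of sums of 0.664 to 0.728 and 0.679 to 0.736, and 1165 to 1664 lower and 436 to 823 higher genes in all. Mrps30 ranged from -0.050 to 0.097 and was below 0 in 5 of these fits, and Mrps18b ranged from -0.034 to 0.104, with its lowest value and that of Mrpl10, -0.024, in the fit without standard OPC replicate 3. The replicate numbers did not pair the libraries, since deviations of same-numbered libraries correlated between -0.28 and 0.30 and 1 of 6 correlated best with its own number. With the replicate block, 31 large-subunit and 18 small-subunit genes were lower, where 16.5% of all tested genes were lower and 6.4% higher. Depth limits Mrps28, with as few as 9 counts in a standard OPC library.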
